A study of Mus musculus with 9 samples.

Results

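Expression of 41 genes of cholesterol and fatty acid synthesis and of the liver X receptors (LXRs) was described across 9 RNA-seq libraries of RAW264.7 cells. The 41 genes were chosen by name and role, with earlier results of these data known. Each was found in the deposited table, which holds 28137 gene identifiers. RAW264.7 is an established mouse macrophage line from a leukemia. By the labels, cells were grown in DMEM with 10% fetal bovine serum at 5% CO2 and received 60 nM siRNA for 6 h by lipofection. They then stayed in complete medium for 12 h and were stimulated with 100 ng/ml LPS, a bacterial lipid that activates macrophages, for 24 h. The titles of all 9 libraries end in 6H, and whether this is the 6 h of transfection or another time is not stated. The control group (NC) received a control siRNA, and the other groups received siRNA against SFRP2, a secreted modulator of Wnt signaling, or against RAB6A, a small GTPase of the Golgi. Each group holds 3 libraries, all labelled as LPS-treated, so there are no unstimulated cells to compare with. The titles of the SFRP2 siRNA libraries run from siRNA-1 to siRNA-3, and the study's supplement lists SFRP2 siRNAs of different sequence under these same names. It does not state which siRNA, or whether a mixture, went into each library, so that the spread in this group may hold differences between siRNAs. The labels do not say whether the 3 libraries of a group came from separate cultures, so that the p-values measure only the spread between these libraries. For RAW264.7 cells, the methods of the study name a different medium, transfection reagent, siRNA dose and timing, and add interferon gamma to the LPS. They do not mention the RAB6A group. The conditions given here are those of the labels, and which of them hold for these libraries could not be settled.

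Cells make cholesterol from acetyl-CoA through mevalonate, isoprenoids, squalene and lanosterol. Transcription of these enzymes, and of many fatty acid enzymes, is driven by the sterol regulatory element-binding proteins (SREBPs), which are held in the endoplasmic reticulum by Scap and the Insig proteins when sterols are plentiful and move with Scap to the Golgi when sterols are scarce. LXRs are nuclear receptors that sense oxidized sterols and switch on genes for cholesterol export. In macrophages, both routes are known to be altered by LPS and to shape lipid storage.

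Recovered read totals were 41608379 to 47149258 in NC, 34743304 to 40562562 in the SFRP2 siRNA group and 32758729 to 37833882 in the RAB6A siRNA group. Sfrp2 itself was near the limit of detection, with 2 reads in each NC library, 2 to 4 reads in the SFRP2 siRNA libraries and 3 to 4 reads in the RAB6A siRNA libraries, so its level does not check the labels of the SFRP2 siRNA group. Rab6a was at 24.3, 27.3 and 25.5 FPKM in NC and at 21.2, 20.7 and 20.4 FPKM in the RAB6A siRNA group, without overlap. Between these groups 77.4% of all genes tested did not overlap (39.2% higher and 38.2% lower), so the separation says little particular of Rab6a. FPKM are fragment counts divided by gene length and by the total of the library. Of 10 macrophage markers, 9 had a mean of at least 0.5 FPKM in each group, and Mertk was near 0. Their summed level was 4582 to 5050 FPKM in NC, 4054 to 4383 FPKM in the SFRP2 siRNA group and 3979 to 4142 FPKM in the RAB6A siRNA group. The markers went different ways in the RAB6A siRNA group. Lyz2 was at 850 to 898 FPKM in NC and 196 to 239 FPKM there, Csf1r at 63.9 to 79.3 and 25.7 to 28.0 FPKM, Spi1 at 124 to 141 and 57.3 to 68.1 FPKM, and Fcgr1 at 65.2 to 67.7 and 33.6 to 45.0 FPKM. Ptprc was at 17.8 to 18.5 FPKM in NC and 19.5 to 21.4 FPKM in the RAB6A siRNA group, Cd14 was at 1620 to 1795 and 1795 to 2107 FPKM, and Adgre1, Cd68 and Itgam overlapped between these groups. Summed markers of fibroblasts reached at most 3.45 FPKM, those of epithelial cells 1.56 FPKM, of endothelial cells 1.17 FPKM and of lymphocytes 0.335 FPKM (3 of 5 markers listed). Adipocytes and hepatocytes are known for high lipid synthesis, and their markers reached 0.280 and 0.557 FPKM. Mitochondrial genes took 9.10% to 10.7% of reads in NC, 10.2% to 12.5% in the SFRP2 siRNA group and 10.3% to 11.6% in the RAB6A siRNA group, and the part of these markers and genes in the results was not tested. In such bulk libraries, fewer cells that express a gene and less RNA per cell cannot be told apart.

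Against NC, the RAB6A siRNA libraries differed in most of the 41 genes, and in both directions within every group of genes except the 3 of sterol handling. The lowest against NC were Fasn, the fatty acid synthase, with a log2 fold change of -2.20, and Nr1h3, which encodes LXR alpha, with -1.90. Among the genes above the filter on low values, the highest was Dhcr7, the reductase of the last step to cholesterol, with 0.98. Of the 39 genes with a mean of at least 0.5 FPKM over the 6 libraries, 17 rose and 15 fell at an adjusted p under 0.05 (limma on log2(FPKM + 0.1), Benjamini-Hochberg over 12712 genes), and 7 did not pass. This is 82.1% of those tested, against 74.1% of all genes tested (37.6% higher and 36.5% lower). An absolute log2 fold change over 1 besides the adjusted p was reached by 4 genes, Fasn, Nr1h3, Soat1 and Elovl6, all lower, which is 10.3% against 30.1% of all genes (12.8% lower and 17.3% higher). The groups did not overlap for 34 genes, 19 higher and 15 lower (87.2%, against 77.4% of all genes, 39.2% higher and 38.2% lower). The median log2 fold change was 0.19 over the 39 genes and 0.03 over all genes tested, and the median absolute value was 0.62 and 0.63. The median over the members moved with the processing, to 0.35 after correction for GC content and gene length (0.09 over all genes), to 0.10 with a pseudocount of 1 (0.02) and to 0.08 with a minimum mean of 1 FPKM (-0.02). Abca1 and Ch25h were below the filter on low values.

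**Figure D1:**
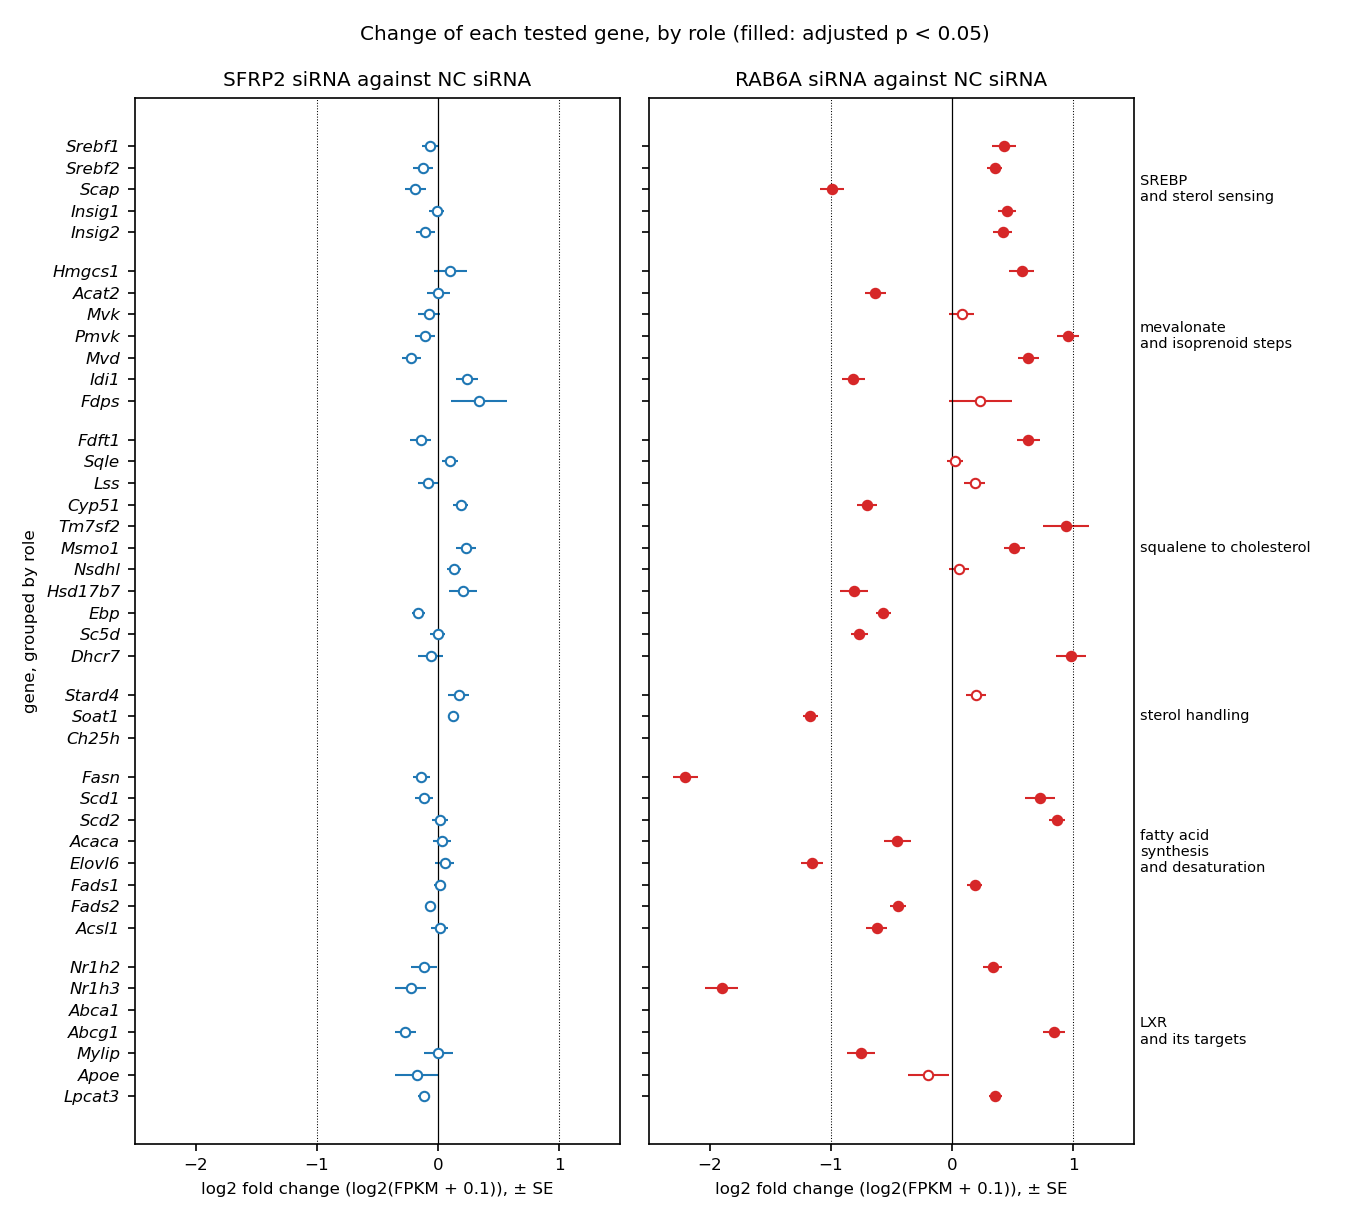
Log2 fold change (± SE, x axis) of each tested gene (y axis, grouped by role) in the SFRP2 siRNA and the RAB6A siRNA libraries against NC, 3 libraries a group; filled points have an adjusted p under 0.05, and dotted lines mark an absolute value of 1. The points of SFRP2 siRNA are all open and lie between -0.27 and 0.34, whereas those of RAB6A siRNA spread from -2.20 to 0.98, with 17 filled points above 0 and 15 below.

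Promoters were read from RefSeq (build GRCm38.p6), as 250 bases before to 50 bases after each gene start, for 33 of the 41 genes. CCAAT, the box bound by NF-Y, a factor that acts beside SREBPs on many sterol genes, stood on either strand in 23 of the 33 (69.7%), against 41.1% of 27025 genes. The 27025 genes were not limited to those tested here. CCAAT was held by 11 of 12 matched genes that rose and by 9 of 15 that fell in the RAB6A siRNA group. Its share among all genes that rose or fell was not taken, so these counts do not link it to a direction. TCACNCCAC, a sterol element, was held by Hmgcs1 and Acsl1 (6.06%, against 1.44% of all genes), 1 that rose and 1 that fell. CACGTG, an E-box, was held by 6 genes (18.2%, against 8.09%), with 2 of the 12 that rose and 3 of the 15 that fell. A longer form of the sterol element and a repeat element of the LXRs were also searched. Each was held by 0 of the 33 genes, against 0.0999% and 0.0148% of all genes. Both are so rare that their absence from 33 genes says little. A match is a string of letters and was not tested for binding. The 250 bases before the start are shown for a pair of genes that rose (Hmgcs1 at chr13:119690101-119690350, plus strand, and Mvd at chr8:122443423-122443672, minus strand) and a pair that fell (Sc5d at chr9:42264301-42264550 and Fasn at chr11:120824548-120824797, both on the minus strand). A stretch of bases after the RefSeq start lay in an annotated transcript for Mvd and Fasn, but not for Hmgcs1 and Sc5d. The genes shown were chosen without a rule and all hold CCAAT, so they only illustrate that this box stands before genes that moved in opposite directions. Each is written 5′ to 3′ on the strand of its gene, with TCACNCCAC, CCAAT (or its complement ATTGG) and CACGTG in capitals; in Fasn, CCAAT and ATTGG overlap at the last site.
Hmgcs1: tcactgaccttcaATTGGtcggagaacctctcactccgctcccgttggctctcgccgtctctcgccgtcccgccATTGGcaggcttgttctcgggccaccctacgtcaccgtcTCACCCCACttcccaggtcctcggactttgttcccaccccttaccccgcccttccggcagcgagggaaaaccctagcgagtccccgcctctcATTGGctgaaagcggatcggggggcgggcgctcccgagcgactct
Mvd: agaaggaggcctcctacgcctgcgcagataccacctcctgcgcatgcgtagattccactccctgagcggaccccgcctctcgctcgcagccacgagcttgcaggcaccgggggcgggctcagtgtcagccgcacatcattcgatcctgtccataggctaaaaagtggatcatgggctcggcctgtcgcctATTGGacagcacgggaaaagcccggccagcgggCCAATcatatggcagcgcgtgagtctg
Sc5d: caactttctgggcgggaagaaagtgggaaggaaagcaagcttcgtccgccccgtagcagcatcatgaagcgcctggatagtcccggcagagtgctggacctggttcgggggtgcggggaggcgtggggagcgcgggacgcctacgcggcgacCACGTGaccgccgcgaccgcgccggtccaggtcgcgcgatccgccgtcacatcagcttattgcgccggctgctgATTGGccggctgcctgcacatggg
Fasn: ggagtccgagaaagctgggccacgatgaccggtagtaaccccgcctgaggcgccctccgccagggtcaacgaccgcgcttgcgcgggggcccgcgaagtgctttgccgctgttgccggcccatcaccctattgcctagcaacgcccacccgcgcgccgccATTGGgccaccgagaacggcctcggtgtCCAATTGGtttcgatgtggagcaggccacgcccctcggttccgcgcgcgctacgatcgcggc

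The genes of SREBP and sterol sensing were split between Scap and the rest in the RAB6A siRNA group, with 4 of 5 higher and 1 lower. Srebf1 was at 7.65, 8.13 and 8.33 FPKM in NC, at 7.69, 8.12 and 7.17 FPKM in the SFRP2 siRNA group and at 12.0, 11.3 and 9.43 FPKM in the RAB6A siRNA group. Srebf2, the main regulator of cholesterol enzymes and the most abundant of the 5, was at 28.1, 25.8 and 28.5 FPKM in NC, at 28.3, 23.6 and 23.8 FPKM in the SFRP2 siRNA group and at 36.2, 35.7 and 33.4 FPKM in the RAB6A siRNA group. For both genes the RAB6A siRNA libraries lay above all others, while NC and SFRP2 siRNA libraries overlapped. The log2 fold change of RAB6A siRNA against NC was 0.43 (SE 0.10, adjusted p = 0.00458, limma) for Srebf1 and 0.35 (SE 0.06, adjusted p = 0.00144, limma) for Srebf2.

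Insig1 and Insig2 encode the proteins that retain Scap in the endoplasmic reticulum. Insig1 was at 11.1, 11.7 and 10.97 FPKM in NC, at 11.7, 11.4 and 10.4 FPKM in the SFRP2 siRNA group and at 14.3, 15.3 and 16.8 FPKM in the RAB6A siRNA group. Insig2 was at 3.34, 3.44 and 3.38 FPKM in NC, at 3.41, 3.01 and 3.02 FPKM in the SFRP2 siRNA group and at 4.22, 4.48 and 4.97 FPKM in the RAB6A siRNA group. Both rose in the RAB6A siRNA group, by 0.45 (SE 0.07, adjusted p = 0.000799, limma) and 0.42 (SE 0.08, adjusted p = 0.00242, limma) on the log2 scale. Scap, the escort of the SREBPs, was at 7.26, 6.09 and 7.61 FPKM in NC, at 6.17, 5.92 and 6.18 FPKM in the SFRP2 siRNA group and at 3.48, 3.64 and 3.26 FPKM in the RAB6A siRNA group. Its log2 fold change was -0.99 (SE 0.10, adjusted p = 6.81e-05, limma), and no library of the RAB6A siRNA group came near the other groups. In the annotation, 13.2% of the exon length of Scap (chr9:110333288-110384950, GRCm38) is shared with a transcript on the other strand, which stayed under 0.0681 FPKM in all 9 libraries.

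Of the 7 genes from acetyl-CoA to farnesyl diphosphate, 3 rose, 2 fell and 2 did not pass in the RAB6A siRNA group. Pmvk and Mvd, the kinase and the decarboxylase that turn phosphomevalonate into the first isoprenoid, both rose. Mvd was the most abundant of the 7, at 21.02, 20.4 and 24.9 FPKM in NC, at 19.7, 18.7 and 18.2 FPKM in the SFRP2 siRNA group and at 35.3, 34.7 and 32.3 FPKM in the RAB6A siRNA group. The RAB6A siRNA libraries were all above NC, and the SFRP2 siRNA libraries all below it. The log2 fold change of Mvd in the RAB6A siRNA group was 0.63 (SE 0.09, adjusted p = 0.000348, limma). Pmvk went from 10.6 ± 1.05 FPKM (SD, n = 3) in NC to 20.6 ± 1.68 FPKM in the RAB6A siRNA group, a log2 fold change of 0.96 (SE 0.09, adjusted p = 6.14e-05, limma). Hmgcs1, the synthase that makes HMG-CoA, went from 8.25 ± 1.18 to 12.3 ± 0.589 FPKM, with a log2 fold change of 0.57 (SE 0.11, adjusted p = 0.00169, limma).

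On the same stretch of the route, Acat2, the thiolase that joins acetyl-CoA units, and Idi1, the isomerase of isopentenyl diphosphate, both fell. Idi1 was at 12.2, 12.0 and 10.3 FPKM in NC, at 13.4, 14.7 and 12.6 FPKM in the SFRP2 siRNA group and at 6.08, 6.27 and 7.13 FPKM in the RAB6A siRNA group. The 3 groups did not overlap, with SFRP2 siRNA highest and RAB6A siRNA lowest. The log2 fold change in the RAB6A siRNA group was -0.81 (SE 0.09, adjusted p = 0.00014, limma) for Idi1 and -0.63 (SE 0.09, adjusted p = 0.000348, limma) for Acat2, whose reads may be shared with its near copy Acat3. Mvk, mevalonate kinase, was at 4.74 ± 0.349 FPKM in NC and 5.02 ± 0.546 FPKM in the RAB6A siRNA group, and did not pass (adjusted p = 0.502, limma). Fdps, farnesyl diphosphate synthase, was at only 0.402 to 0.549 FPKM in NC and 0.496 to 0.745 FPKM in the RAB6A siRNA group, from 70 to 114 reads a library in the latter. This is far below its neighbors on the route. In the annotation, 26.7% of the exon length of Fdps is shared with Gm43738 on the same strand. Gm43738 was at no more than 0.0365 FPKM in NC, 0.00936 FPKM in the SFRP2 siRNA group and 0 FPKM in the RAB6A siRNA group. Whether reads of Fdps were lost or split there was not tested.

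Of the 11 genes from squalene to cholesterol, 4 rose, 4 fell and 3 did not pass in the RAB6A siRNA group, so that successive enzymes went different ways. Cyp51, the lanosterol demethylase, was the most abundant of the 11. It was at 27.1, 26.1 and 24.2 FPKM in NC, at 28.8, 31.3 and 28.0 FPKM in the SFRP2 siRNA group and at 15.0, 14.8 and 17.6 FPKM in the RAB6A siRNA group. The 3 groups did not overlap, as for Idi1, and the log2 fold change of RAB6A siRNA was -0.71 (SE 0.08, adjusted p = 0.000162, limma). Msmo1, the oxidase that acts after Cyp51, was at 12.2, 12.7 and 10.6 FPKM in NC, at 14.5, 14.2 and 13.0 FPKM in the SFRP2 siRNA group and at 17.9, 17.0 and 15.9 FPKM in the RAB6A siRNA group. Its groups did not overlap either, but here RAB6A siRNA was highest, with a log2 fold change of 0.51 (SE 0.08, adjusted p = 0.000932, limma).

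The late steps of sterol synthesis were split in the same way. Ebp, the isomerase of the sterol ring, was at 12.4, 13.4 and 12.5 FPKM in NC, at 11.6, 11.5 and 11.01 FPKM in the SFRP2 siRNA group and at 8.31, 8.98 and 8.44 FPKM in the RAB6A siRNA group. Sc5d, the desaturase that follows Ebp, went from 18.4 ± 0.895 FPKM (SD, n = 3) in NC to 10.8 ± 0.756 FPKM in the RAB6A siRNA group, and Hsd17b7, a sterol ketone reductase, went from 7.31 ± 1.05 to 4.11 ± 0.328 FPKM. Ebp, Sc5d and Hsd17b7 fell by 0.57, 0.77 and 0.81 on the log2 scale (adjusted p = 0.00011, 4.74e-05 and 0.000428, limma). Dhcr7, which acts on the product of Sc5d, rose from 2.98 ± 0.32 to 5.99 ± 0.846 FPKM, a log2 fold change of 0.98 (SE 0.12, adjusted p = 0.000212, limma).

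At the entry of this stretch, Fdft1, squalene synthase, went from 11.6 ± 1.26 FPKM in NC to 18.0 ± 1.2 FPKM in the RAB6A siRNA group, a log2 fold change of 0.63 (SE 0.09, adjusted p = 0.000541, limma). Fdft1 shares 18.3% of its exon length with Ctsb on the other strand, which was at 468 to 493 FPKM in NC and 371 to 400 FPKM in the RAB6A siRNA group. Whether the counting used strand is not given in the sources used here, and the part of Ctsb reads in the value of Fdft1 was not tested. Tm7sf2, a sterol reductase, was at 0.417 to 0.515 FPKM in NC and 0.922 to 1.10 FPKM in the RAB6A siRNA group, a log2 fold change of 0.94 (SE 0.19, adjusted p = 0.00268, limma). Its mean was above the filter of 0.5 FPKM only in the RAB6A siRNA group, so that its place among the 17 genes that rose rests on that group, and with quantile normalization the log2 fold change was 0.45 and the call was lost (adjusted p = 0.0644). It shares 12.1% of its exon length with Vps51 on the same strand, which was at 2.48 to 3.15 FPKM in NC and 2.46 to 3.18 FPKM in the RAB6A siRNA group. Sqle and Lss, which make squalene epoxide and close it to lanosterol, and Nsdhl, a decarboxylating dehydrogenase, did not pass, with log2 fold changes of 0.03, 0.19 and 0.06 (adjusted p = 0.722, 0.0816 and 0.573, limma). These 3 were called with GC content and gene length corrected for, at 0.35, 0.43 and 0.32 (adjusted p = 0.00354, 0.00325 and 0.00451), and Lss also with voom (0.20, adjusted p = 0.0313) and without RAB6A siRNA library 3 (0.25, adjusted p = 0.0297). For Lss, the RAB6A siRNA libraries lay just above the highest NC library, without overlap.

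**Figure D2:**
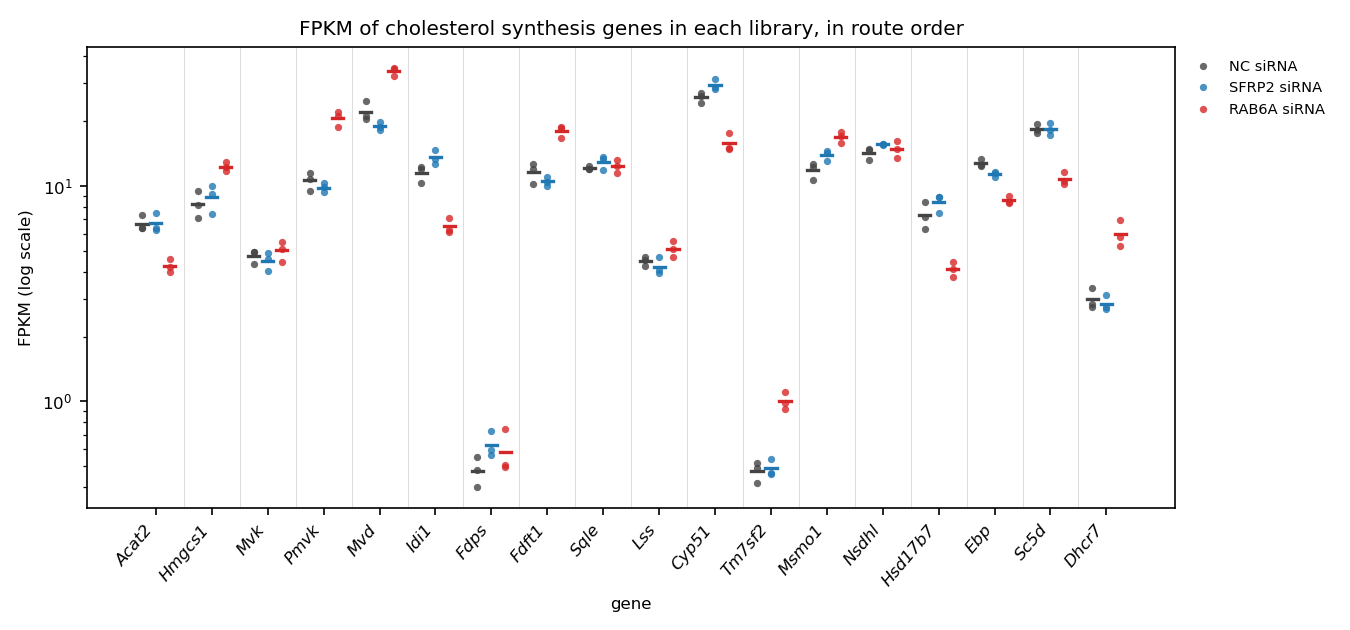
FPKM (y axis, log scale) of the 18 cholesterol synthesis genes in each library, in the order of the route along the x axis; points are libraries and bars are means of 3. Under RAB6A siRNA, Hmgcs1, Pmvk, Mvd, Fdft1, Tm7sf2, Msmo1 and Dhcr7 stand above NC, and Lss barely so. Acat2, Idi1, Cyp51, Hsd17b7, Ebp and Sc5d stand below it.

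Among the genes that handle finished sterol, Soat1, the enzyme that esterifies cholesterol for storage in droplets, was the most abundant. It was at 35.4, 34.0 and 33.1 FPKM in NC, at 37.0, 37.4 and 37.1 FPKM in the SFRP2 siRNA group and at 14.5, 14.8 and 16.1 FPKM in the RAB6A siRNA group. The RAB6A siRNA libraries were below every other library, and the SFRP2 siRNA libraries were slightly above NC without overlap. The log2 fold change of Soat1 (chr1:156424525-156474331, GRCm38) was -1.17 (SE 0.06, adjusted p = 3.97e-06, limma) in the RAB6A siRNA group. Stard4, a carrier of cholesterol between membranes, was at 3.43 ± 0.235 FPKM in NC and 3.94 ± 0.241 FPKM in the RAB6A siRNA group and did not pass (log2 fold change 0.20, adjusted p = 0.0718, limma), but was called under the same correction (0.52, adjusted p = 0.000648). Ch25h, which makes the LXR ligand and SREBP inhibitor hydroxycholesterol, was close to absent, with 3 to 11 reads in the NC libraries, 3 to 6 in the SFRP2 siRNA libraries and 1 to 7 in the RAB6A siRNA libraries. No difference in Ch25h was detectable at this depth.

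Of the 8 genes of fatty acid synthesis and desaturation, 3 rose and 5 fell in the RAB6A siRNA group. Those that build the saturated chain fell. Fasn (chr11:120805846-120824547, GRCm38) was at 31.7, 27.5 and 31.0 FPKM in NC, at 27.5, 26.0 and 28.3 FPKM in the SFRP2 siRNA group and at 6.83, 7.004 and 5.60 FPKM in the RAB6A siRNA group. The RAB6A siRNA libraries were far from the others, at 0.218 of the NC level on the log2(FPKM + 0.1) scale, a log2 fold change of -2.20 (SE 0.10, adjusted p = 2.41e-06, limma). Elovl6, the elongase that takes the product of Fasn further (chr3:129532355-129638495, GRCm38), was at 7.24, 6.84 and 6.10 FPKM in NC, at 6.92, 7.39 and 6.64 FPKM in the SFRP2 siRNA group and at 3.03, 2.77 and 3.09 FPKM in the RAB6A siRNA group. Its log2 fold change was -1.15 (SE 0.09, adjusted p = 1.81e-05, limma), again without overlap. Acaca, the carboxylase that supplies malonyl-CoA, went from 3.52 ± 0.241 FPKM (SD, n = 3) to 2.55 ± 0.322 FPKM, a log2 fold change of -0.45 (SE 0.11, adjusted p = 0.00787, limma). When GC content and gene length were corrected for, this call was lost, and the log2 fold change was -0.27 (adjusted p = 0.0768).

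The desaturases were divided. Scd1 and Scd2, which place the double bond of oleate and palmitoleate, went from 13.6 ± 1.26 to 22.6 ± 3.54 FPKM and from 38.3 ± 2.54 to 69.6 ± 2.24 FPKM. They rose by 0.72 (SE 0.12, adjusted p = 0.00114, limma) and 0.86 (SE 0.06, adjusted p = 1.63e-05, limma) on the log2 scale, and the split of reads between these similar neighbors on chromosome 19 is uncertain. Fads2, the first desaturase of polyunsaturated fatty acids and the most abundant of the 8, was at 52.7, 54.3 and 54.9 FPKM in NC, at 53.1, 49.9 and 51.8 FPKM in the SFRP2 siRNA group and at 36.7, 40.2 and 42.2 FPKM in the RAB6A siRNA group. It fell by 0.44 on the log2 scale (SE 0.06, adjusted p = 0.000485, limma), whereas its neighbor Fads1, which acts later on the same chains, had a log2 fold change of 0.19 (SE 0.06, adjusted p = 0.0274, limma). The call of Fads1 was lost with median-of-ratios scaling (adjusted p = 0.0744), without a variance trend, and without NC library 1 or 2 or RAB6A siRNA library 2 or 3 (log2 fold changes of 0.15 to 0.18). Acsl1, which activates long-chain fatty acids, went from 6.23 ± 0.402 to 4.01 ± 0.284 FPKM, a log2 fold change of -0.62 (SE 0.08, adjusted p = 0.000307, limma).

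The LXR genes and their known targets did not move as a block in the RAB6A siRNA group either. Nr1h3 (chr2:91184061-91202834, GRCm38) was at 3.27, 2.68 and 3.00 FPKM in NC, at 2.95, 2.47 and 2.21 FPKM in the SFRP2 siRNA group and at 0.722, 0.641 and 0.813 FPKM in the RAB6A siRNA group. Nr1h2, which encodes LXR beta, was at 16.7, 15.0 and 16.6 FPKM in NC, at 17.4, 14.5 and 13.0 FPKM in the SFRP2 siRNA group and at 22.1, 20.4 and 18.7 FPKM in the RAB6A siRNA group. Nr1h2 was thus the more abundant receptor in every library, and the receptors moved in opposite directions. The log2 fold change was -1.90 (SE 0.13, adjusted p = 1.25e-05, limma) for Nr1h3 and 0.34 (SE 0.08, adjusted p = 0.0055, limma) for Nr1h2.

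Among the targets, the cholesterol exporters were higher. Abcg1 was at 4.15, 3.92 and 4.65 FPKM in NC, at 3.62, 3.61 and 3.26 FPKM in the SFRP2 siRNA group and at 7.54, 8.29 and 7.14 FPKM in the RAB6A siRNA group. The 3 groups did not overlap, and the log2 fold change in the RAB6A siRNA group was 0.84 (SE 0.09, adjusted p = 9.82e-05, limma). Abca1, the exporter of cholesterol to lipid-poor apolipoproteins, was very low throughout, with 12, 22 and 24 reads in NC, 18, 10 and 16 reads in the SFRP2 siRNA group and 69, 108 and 122 reads in the RAB6A siRNA group. In FPKM this was 0.0424 ± 0.0135 (SD, n = 3) in NC and 0.273 ± 0.0881 in the RAB6A siRNA group, a ratio of means of 6.42 (exact two-sided permutation p = 0.1, the smallest that 3 against 3 allow). Without the filter on low values, Abca1 had a log2 fold change of 1.36 (SE 0.26, adjusted p = 0.00554, limma) on a scale whose pseudocount of 0.1 lies above its NC level.

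Lpcat3, which loads phospholipids with polyunsaturated chains, went from 12.4 ± 0.302 to 15.8 ± 0.133 FPKM, a log2 fold change of 0.36 (SE 0.05, adjusted p = 0.000494, limma). Its exons share 10.2% of their length with Emg1 on the other strand, which was at 16.8 to 18.1 FPKM in NC and at 12.1 to 14.8 FPKM in the RAB6A siRNA group. Mylip, the ubiquitin ligase for lipoprotein receptors, went from 4.32 ± 0.391 to 2.53 ± 0.327 FPKM, a log2 fold change of -0.75 (SE 0.12, adjusted p = 0.000699, limma). Apoe, the apolipoprotein secreted by macrophages, was at 2.54, 1.68 and 1.68 FPKM in NC and at 1.65, 1.76 and 1.61 FPKM in the RAB6A siRNA group. These overlapped and did not pass (log2 fold change -0.20, adjusted p = 0.32, limma), except with quantile normalization (-0.42, adjusted p = 0.0394).

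**Figure D3:**
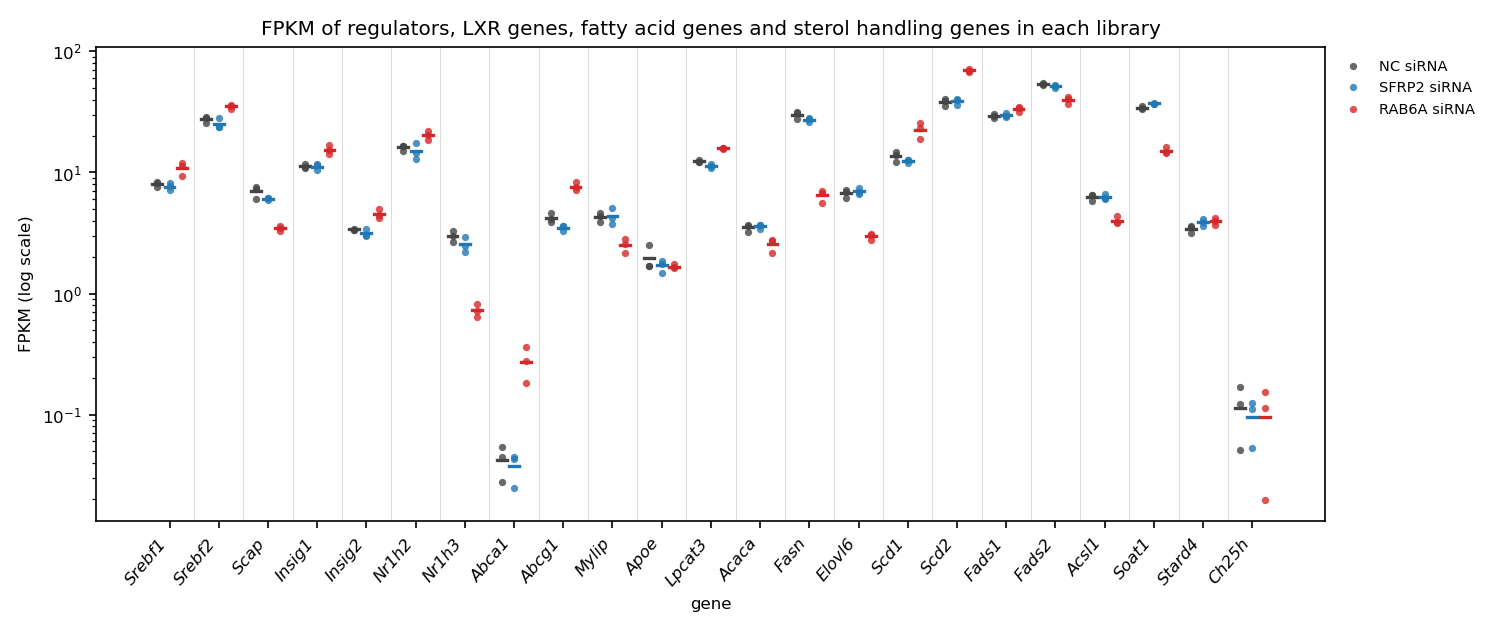
FPKM (y axis, log scale) of the regulators, LXR genes, fatty acid genes and sterol handling genes (x axis) in each library; points are libraries and bars are means of 3. The RAB6A siRNA libraries lie apart from NC for Fasn (5.60 to 7.004 against 27.5 to 31.7 FPKM), Nr1h3, Soat1 and Elovl6 below and for Abca1, Abcg1 and Scd2 above.

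Genes of related routes were set beside these values in the RAB6A siRNA group. Their lists were written by role, with earlier results of these data known. Over all genes tested, 74.1% were called, 37.6% higher and 36.5% lower, so that counts near these shares say nothing particular of a list. Of 16 genes of SREBP processing and sterol-regulated degradation, 3 rose and 9 fell, with a median log2 fold change of -0.50. Sec23a, a coat protein of vesicles that leave the endoplasmic reticulum, had 0.40, and Ufd1, a cofactor of protein extraction from the endoplasmic reticulum, had 0.37 (adjusted p = 0.00224 and 0.00171, limma), while Rnf145 and Erlin2, which take part in sterol-regulated degradation, had -1.28 and -1.18 (adjusted p = 9.06e-06 and 9.25e-06, limma). Of 12 tested isoprenoid, cholesterol and acyl-CoA enzymes outside the 41, 3 rose and 7 fell, with a median of -0.45. Acss2, which makes acetyl-CoA from acetate, went from 0.552 ± 0.0493 FPKM in NC to 2.34 ± 0.183 FPKM, and Slc25a1, the mitochondrial citrate carrier, went from 18.8 ± 0.601 to 47.3 ± 3.08 FPKM, log2 fold changes of 1.90 and 1.33 (adjusted p = 1.34e-05 and 2.94e-06, limma). Both are known to supply carbon to the route on which Fasn acts. Aacs, which makes acetoacetyl-CoA from acetoacetate, went from 6.40 ± 0.528 to 3.10 ± 0.467 FPKM (log2 fold change -1.03, adjusted p = 0.000146, limma), and Lbr, a sterol reductase of the nuclear membrane, went from 12.4 ± 0.375 to 6.97 ± 0.246 FPKM (log2 fold change -0.82, adjusted p = 1.42e-05, limma).

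Of 14 tested sterol trafficking genes, 10 rose and 4 fell, with a median of 0.36. Pltp, a phospholipid transfer protein, and Abca7, a lipid transporter related to Abca1, had log2 fold changes of 1.83 and 1.34 (adjusted p = 0.000349 and 3.63e-05, limma), while Lipa, the lysosomal acid lipase that frees cholesterol from esters, had -0.61 and Gramd1b, a sterol carrier at membrane contacts, had -0.41 (adjusted p = 0.000125 and 0.000379, limma). Of 14 tested genes of fatty acid synthesis and elongation outside the 41, 5 rose and 7 fell (median -0.15). In the elongation cycle, Tecr, an enoyl reductase, rose from 77.1 ± 2.21 to 116 ± 6.26 FPKM and Hacd3, a dehydratase, by 0.54 on the log2 scale, whereas Hsd17b12, a ketoacyl reductase, fell from 69.0 ± 1.71 to 25.1 ± 1.28 FPKM (adjusted p = 7.70e-05, 8.52e-05 and 1.60e-06, limma). Oxsm, the mitochondrial ketoacyl synthase, had -1.18 (adjusted p = 0.000198, limma). Of 10 tested partners of the nuclear receptors, 3 rose and 4 fell (median -0.14), and Ncoa5, a coactivator, and Med14, a Mediator subunit, had the lowest values, -1.92 and -1.40 (adjusted p = 1.24e-06 and 2.62e-05, limma). Rxrb, which encodes a partner of LXR, had 0.66 and Rara, a retinoic acid receptor, had 0.76 (adjusted p = 0.00052 and 0.000541, limma).

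Against NC, the SFRP2 siRNA libraries differed little in these genes. None of the 38 genes tested passed an adjusted p of 0.05 (limma), as none of the 12017 genes of the table did (0.0%), and the smallest adjusted p was 0.200 among the 38 and 0.140 overall. With voom on recovered reads 42 genes of the table were called, and none of them was among the 41. An unadjusted p under 0.05 was found for 7 of the 38 (18.4%), 4 higher and 3 lower, against 18.5% of all genes (7.73% higher and 10.7% lower). Values did not overlap between the groups for 10 of the 38 (26.3%), against 24.7% of all genes. Fdps, among these 10, had the highest log2 fold change of the 38, 0.34. Its mean was 0.477 FPKM in NC, under the filter of 0.5 FPKM, and 0.628 FPKM with SFRP2 siRNA, so its place rests on the SFRP2 siRNA group. The median log2 fold change was -0.04 over the 38 genes and -0.01 over all, and the median absolute value was 0.12 for both. Tm7sf2, Ch25h and Abca1 were below the filter.

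The 7 genes with the smallest unadjusted p had small differences. Higher in the SFRP2 siRNA libraries were Idi1 with a log2 fold change of 0.24 (SE 0.09, unadjusted p = 0.0293, limma), Msmo1 with 0.23 (SE 0.08, unadjusted p = 0.0242, limma), Cyp51 with 0.19 (SE 0.06, unadjusted p = 0.0223, limma) and Soat1 with 0.12 (SE 0.04, unadjusted p = 0.026, limma). Lower were Abcg1 with -0.27 (SE 0.09, unadjusted p = 0.0162, limma), Mvd with -0.22 (SE 0.08, unadjusted p = 0.0306, limma) and Ebp with -0.16 (SE 0.05, unadjusted p = 0.0179, limma). Their adjusted p lay between 0.200 and 0.232. In all 7 genes the groups did not overlap, as in 24.7% of all genes tested. Because the 7 were taken for their small p, this separation adds no support. For the regulators, the log2 fold change was -0.07 for Srebf1, -0.13 for Srebf2, -0.19 for Scap, -0.01 for Insig1, -0.10 for Insig2, -0.12 for Nr1h2 and -0.23 for Nr1h3, none of which passed (adjusted p of 0.304 to 0.937, limma). Of the related lists, too, no gene passed.

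GC content moved with these differences. Across the 38 genes, Spearman's rho between the log2 fold change of SFRP2 siRNA and the GC content of the longest transcript was -0.735, and across 11903 genes of the table it was -0.482. These correlations run over genes of the same 6 libraries, which are not independent replicates. The 4 genes that were higher had a GC content of 41.9% (Idi1), 44.7% (Msmo1), 46.2% (Cyp51) and 44.1% (Soat1), and those that were lower had 52.7% (Abcg1), 59.0% (Mvd) and 50.9% (Ebp). After correction for GC content and gene length, rho across the 38 genes was -0.272, and the log2 fold changes were 0.15 for Idi1, 0.17 for Msmo1, 0.15 for Cyp51, 0.04 for Soat1, -0.22 for Abcg1, -0.09 for Mvd and -0.10 for Ebp. For RAB6A siRNA against NC, rho was 0.200 across 39 genes and 0.0785 across all genes. The part of GC content in the differences of single genes was not tested further.

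**Figure D4:**
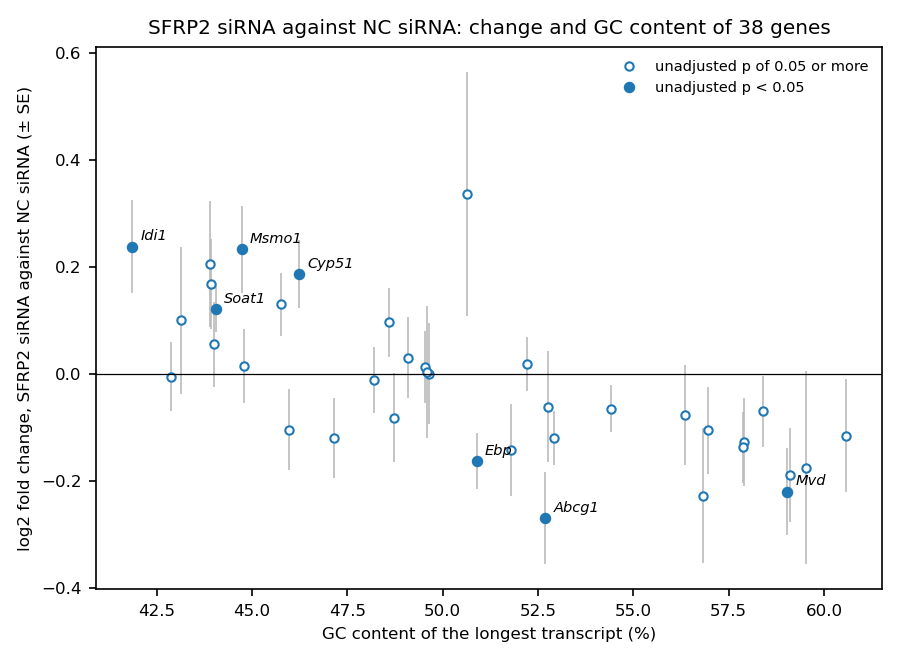
Log2 fold change of SFRP2 siRNA against NC (y axis, ± SE) and GC content of the longest transcript in percent (x axis) for the 38 genes tested; filled points have an unadjusted p under 0.05. The filled points above 0 lie at 41.9% to 46.2% GC and those below 0 at 50.9% to 59.0% GC.

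RAB6A siRNA was also compared with SFRP2 siRNA directly, which shares the RAB6A siRNA libraries with the comparison above. Of 39 genes tested, 18 were higher and 15 lower at an adjusted p under 0.05 (limma), 84.6% against 73.4% of 12764 genes (37.6% higher and 35.8% lower). An absolute log2 fold change over 1 was reached by 9 of them (23.1%, against 31.1% of all genes, 17.8% higher and 13.3% lower). These 9 genes were Fasn (-2.06), Nr1h3 (-1.68), Soat1 (-1.29), Elovl6 (-1.21), Idi1 (-1.05), Hsd17b7 (-1.02), Dhcr7 (1.04), Pmvk (1.06) and Abcg1 (1.11). The groups did not overlap for 32 of the 39 genes (82.1%, against 77.0% of all genes). For Idi1, Cyp51, Soat1, Mvd, Abcg1 and Lpcat3, the SFRP2 siRNA and RAB6A siRNA libraries lay on opposite sides of NC. A larger difference than against NC follows from this position alone, and none of these genes passed in SFRP2 siRNA against NC. Lss, which did not pass against NC, had a log2 fold change of 0.27 (SE 0.10, adjusted p = 0.0408, limma) here, although its groups overlapped. Tm7sf2, among the 18 that were higher, had a mean of 0.490 FPKM with SFRP2 siRNA and 1.00 FPKM with RAB6A siRNA. Its place thus rests on the RAB6A siRNA group here as well. On log2(FPKM + 0.1) as deposited, Mvk, Fdps, Sqle, Nsdhl, Stard4 and Apoe passed in none of the 3 comparisons; Sqle, Nsdhl, Stard4 and Apoe were called against NC under the alternatives given above.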

How the data were processed

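RNA from 9 libraries of RAW264.7 cells was sequenced. FPKM values, 1 per gene and library, are what the authors deposited; HISAT2, Subread and featureCounts are named in the submitters' processing notes, while versions, genome build, annotation and strand setting are not given in the sources used here. Genes were named from GENCODE M21 (GRCm38), which held 27533 of 28137 identifiers. FPKM multiplied by exon length gave whole reads within 0.03 in all 9 libraries for 27084 genes (98.4%), with totals of 32758729 to 47149258 reads; most fragments count as a pair of reads, and intervals of such counts would cover counting error only.

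The methods of the study name a count model. As FPKM are not counts, log2(FPKM + 0.1) was tested with limma 3.58.1 in R 4.3.3 (lmFit, eBayes with trend) for genes with a mean of at least 0.5 FPKM over the 6 libraries, and p-values were adjusted by Benjamini-Hochberg over all genes tested. Fold changes on this scale understate those of low genes. Abca1 and Ch25h were compared with an exact permutation test. The script was tested on simulated data. Python 3.11.15 with pandas 2.3.3, scipy 1.17.1 and matplotlib 3.10.9 was used for the other steps.

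Members and lists were chosen with earlier results of these data known. Values per library are given for the regulators, for genes past an adjusted p of 0.05 and an absolute log2 fold change of 1 with RAB6A siRNA, for the 5 smallest unadjusted p with SFRP2 siRNA and for the most abundant gene of each role; for the related lists, the rule took the 2 largest changes in each direction. Idi1, Abca1 and Apoe are also given per library, a choice made after their values were seen. Alternatives were pseudocounts of 0.01 and 1, quantile normalization, median-of-ratios scaling, no filter on low values or a minimum mean of 1 FPKM, no variance trend, a replicate block, all 9 libraries in 1 fit, a correction by natural splines of GC content and gene length (5 degrees of freedom), voom on recovered reads and each library left out in turn. Wound tissue was not analysed here.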

Additional observations from a re-analysis of the deposited data

How the results depend on the processing

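With SFRP2 siRNA, none of the alternatives called any of the 41 genes; over the whole table they called 0 genes except voom on recovered reads (42 genes, 7 higher and 35 lower) and the fit without NC library 1 (1 gene), so that leaving out a library gave 0 to 1. With RAB6A siRNA against NC, 16 to 21 of the 41 genes were higher and 14 to 16 lower over the alternatives, and against SFRP2 siRNA 16 to 21 and 14 to 15. Correction for GC content and gene length gave the 21, with Sqle (0.35), Lss (0.43), Nsdhl (0.32) and Stard4 (0.52) then past the threshold. Direction turned for Sqle with median-of-ratios scaling (-0.0186) and without RAB6A siRNA library 1 (-0.0176, in a range up to 0.0780 over the libraries left out), for Nsdhl without RAB6A siRNA library 3 (-0.00746, in a range up to 0.124) and for Fdps with quantile normalization (-0.44), none of them past the threshold; the cause was not tested. With quantile normalization Tm7sf2 was at 0.45 and lost its call (adjusted p = 0.0644, limma), and Apoe gained one at -0.42 (adjusted p = 0.0394, limma).

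Same-numbered libraries of different groups did not deviate together (mean correlation of deviations -0.0102, against 0.0051 for different numbers), so the numbers were not taken as pairs. With the replicate block, 0 genes were called for SFRP2 siRNA, 9103 for RAB6A siRNA against NC and 9159 against SFRP2 siRNA, and among the 41 genes 17 and 15, and 18 and 15, were higher and lower. Few reads were recovered for Abca1, Ch25h and Sfrp2. Differences as small as those seen with SFRP2 siRNA may go uncalled with 3 libraries a group, and the part of depth in this was not tested.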

Other observations

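Genes of lipid droplets and of fatty acid oxidation lie outside the 41 genes; beside their counts stands the share of all genes called for RAB6A siRNA against NC, 74.1% (37.6% higher and 36.5% lower). Of 14 tested genes of neutral lipids and droplets, 6 rose and 7 fell, with a median log2 fold change of -0.20. Lpin1, the phosphatidate phosphatase of triglyceride synthesis, was at 0.851 ± 0.0821 FPKM (SD, n = 3) in NC, 0.685 ± 0.0678 FPKM in the SFRP2 siRNA group and 5.75 ± 0.0152 FPKM in the RAB6A siRNA group, a log2 fold change of 2.62 (adjusted p = 1.37e-06, limma). Plin2, the main coat protein of droplets in macrophages, was at 102 ± 11.8 FPKM in NC, 85.4 ± 8.78 FPKM in the SFRP2 siRNA group and 37.5 ± 3.89 FPKM in the RAB6A siRNA group (log2 fold change -1.44, adjusted p = 1.65e-05, limma), while Plin3, a related coat protein, rose by 0.78 (adjusted p = 0.000103, limma). Gpat4, an acyltransferase of glycerolipid synthesis, had -0.91.

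Of 15 genes of fatty acid uptake and oxidation, 4 rose, 5 fell and 6 did not pass, with a median of -0.05. Cpt1a, the gate of fatty acids into mitochondria, went from 5.88 ± 0.636 to 2.27 ± 0.285 FPKM (log2 fold change -1.34, adjusted p = 3.98e-05, limma), and Lpl, lipoprotein lipase, from 110.2 ± 6.58 to 72.5 ± 9.57 FPKM (-0.61, adjusted p = 0.000867, limma). Fabp5, a fatty acid carrier, rose from 77.8 ± 4.06 to 127 ± 8.06 FPKM (0.70, adjusted p = 6.19e-05, limma), and Acadl, a long-chain acyl-CoA dehydrogenase, had 0.54 (adjusted p = 6.41e-05, limma). With SFRP2 siRNA, no gene of either list passed an adjusted p of 0.05.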
